A study of Mus musculus with 231 samples.

Results

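Mature miRNAs in the blood of CM mice were compared with those of Ctrl mice at training month 3, the time labelled T3. All libraries of this month were used, 7 from CM mice and 7 from Ctrl mice of 231 libraries in the series, with 1 library per mouse, and 455 of the 1863 miRNAs in the count table passed the filter on low counts and were tested. CM mice (genotype code CHW in the labels, strain C57BL/6, 4 female and 3 male) carry a conditional knock-in of Cbfb-MYH11 (CM), the fusion gene of inv(16) acute myeloid leukemia (AML), and Mx1-Cre, which deletes floxed sequence in blood-forming cells and in other interferon-responsive cells. Cre was induced at 6 to 8 weeks of age with 7 doses of poly(I:C) at 14 mg/kg. Ctrl mice (codes CW in 4, HW in 2 and WT in 1, with 2 female and 5 male) were littermates given the same poly(I:C), so that both arms had been exposed to the interferon inducer. The labels describe the littermates as lacking the transgene, whereas the methods of the study describe single-allele littermates as controls, and the letters of the codes are not explained in the sources used here. Among the libraries analysed here, CM mice 3338 and 3357 had none after month 4.

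MicroRNAs are short RNAs cut from hairpin precursors, and either arm of a hairpin (5p or 3p) can be loaded into Argonaute. Bases 2 to 8 of the loaded strand, the seed, pair with target mRNAs, so that miRNAs with the same seed can share targets. In blood, single miRNAs mark lineages. miR-144 and miR-451a mark red cells, miR-150 marks mature lymphocytes, miR-223 marks granulocytes and monocytes, and miR-126, from an intron of Egfl7, is carried by stem cells, endothelium and platelets. Since the libraries were made from bulk RNA of peripheral blood mononuclear cells (PBMC), fewer cells of a type and less of a miRNA per cell cannot be told apart.

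Of the 100 miRNAs called below, 86 had a mature sequence under the same name in RefSeq (GRCm38.p6). The sequences that follow are those of some of the miRNAs described below, written 5′ to 3′ with the seed in capitals. miR-126a-5p, miR-151-5p, miR-151-3p and miR-150-5p had no mature sequence under these names and are not printed. The first set rose in CM mice. Here rose, fell and moved stand for levels higher or lower than in Ctrl mice at month 3, not for change over time.
miR-126a-3p: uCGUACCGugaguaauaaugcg
miR-31-5p: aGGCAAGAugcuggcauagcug
miR-340-3p: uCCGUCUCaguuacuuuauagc
miR-499-5p: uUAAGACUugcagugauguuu
miR-322-3p: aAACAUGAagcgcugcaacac
miR-148a-3p and miR-148b-3p lie on different chromosomes, share a seed and both rose.
miR-148a-3p: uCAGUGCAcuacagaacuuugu
miR-148b-3p: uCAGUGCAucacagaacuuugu
miR-200b-3p and miR-200c-3p share a seed and both fell, whereas the seed of miR-141-3p, encoded beside miR-200c, differs from theirs.
miR-200b-3p: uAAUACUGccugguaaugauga
miR-200c-3p: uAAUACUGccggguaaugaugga
miR-141-3p: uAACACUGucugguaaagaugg
miR-181c-5p and miR-181d-5p come from a single locus and share a seed, but moved in opposite directions, as did both arms of the miR-503 hairpin.
miR-181c-5p: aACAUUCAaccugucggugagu
miR-181d-5p: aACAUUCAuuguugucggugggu
miR-503-5p: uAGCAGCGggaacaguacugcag
miR-503-3p: gAGUAUUGuuuccacugccugg
miR-374b-5p showed the smallest unadjusted p among the decreases, and the level of miR-26a-5p depended on which deposited table was read.
miR-374b-5p: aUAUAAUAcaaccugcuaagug
miR-26a-5p: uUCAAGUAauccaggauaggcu

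Total counts per library were between 2327096 and 5672962 in CM and between 4271438 and 6570100 in Ctrl mice. They were lower in CM mice by 0.37 on the log2 scale (exact permutation test, two-sided p = 0.0402), and by 0.25 without mice 3334 and 3335 (exact permutation test, p = 0.106). Some facts of the libraries bear on every result below. The sample numbers in the titles of mouse 3334 (CM) and mouse 3335 (Ctrl) appear crossed between these mice, and 3334 was also the smallest library. Each title carries a G number, whose meaning is not stated in the sources used here, and only number 3 was shared by both arms (CM mouse 3334 and Ctrl mouse 3339). The other CM libraries had G numbers 4 and 5, and the other Ctrl libraries 1 and 2, so that arm and G number cannot be told apart outside this pair. miR-142a-5p, a miRNA of blood cells in general, was at 31528 to 75550.3 CPM (counts scaled to library size after TMM normalisation) in CM and 42083 to 51258 CPM in Ctrl libraries. The summed CPM of the 7 erythroid miRNAs was between 48556 and 101265 in CM and between 34672 and 60141 in Ctrl mice, and red cells are no mononuclear cells, whose part in the results below was not tested.

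The comparison asks which miRNAs differ between CM and Ctrl mice at month 3. All 455 were tested with edgeR's quasi-likelihood test, and a miRNA was called at a Benjamini-Hochberg (BH) adjusted p under 0.05. In all 100 miRNAs (22.0%) passed, of which 65 (14.3%) had a higher level in CM mice and 35 (7.69%) a lower level, and 171 had an unadjusted p under 0.05. Of the called miRNAs 32 were higher and 14 lower by at least 1 on the log2 scale, and the median log2 fold change of all 455 was 0.07. In 29 miRNAs (6.37% of those tested) the arms did not overlap, 15 (3.30%) with every CM library above and 14 (3.08%) with every CM library below every Ctrl library. The share of higher calls depended on the table and the mice. It was 65% from the counts, 46.9% from the deposited CPM (60 higher, 68 lower, limma) and 45.6% without mice 3338 and 3357 (36 higher, 43 lower).

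With the G number as a covariate 6 miRNAs were called, 1 of which was among the 100, and 85 had an unadjusted p under 0.05. This fit rests on the single pair of mice that share a number. In that pair, 61 of the 65 higher and 32 of the 35 lower miRNAs differed in the same direction as over all mice. Among all 455 tested miRNAs, 319 had the same sign. Mice 3334 and 3339 are themselves among the 7 CM and 7 Ctrl mice from which the calls were made.

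**Figure D1:**
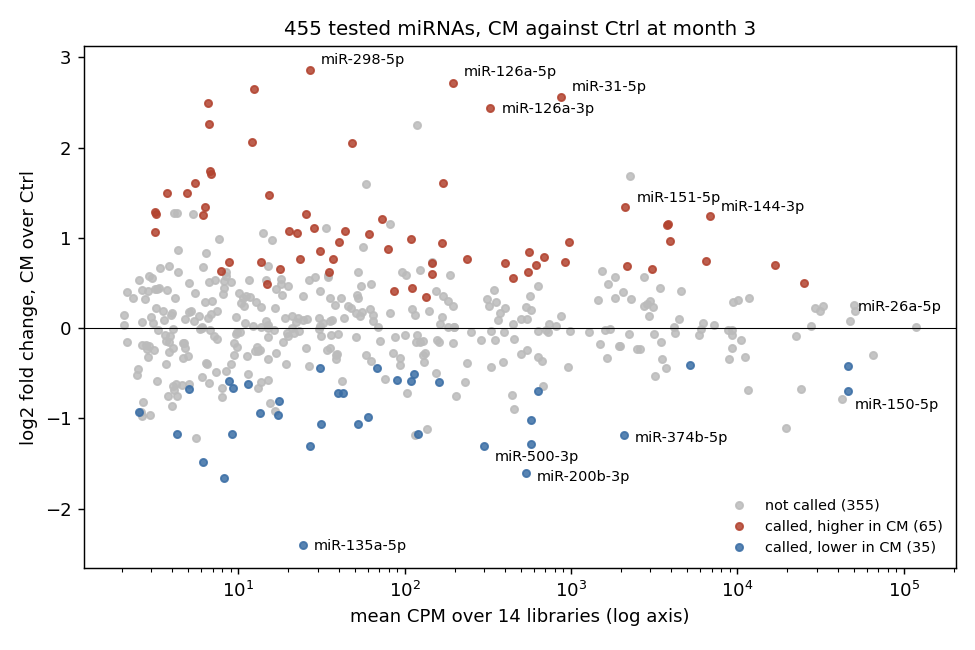
Each point is 1 of the 455 tested miRNAs, with the mean CPM over the 14 libraries on a log axis against the log2 fold change of CM over Ctrl mice. The 65 miRNAs called higher (red) reach 2.86, for miR-298-5p, and the 35 called lower (blue) reach -2.40, for miR-135a-5p, with the 355 others in grey.

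The largest fitted increase was that of miR-298-5p, whose size depended largely on 1 mouse and which is described further on. From the counts, both arms of miR-126a were higher in every CM mouse than in any Ctrl mouse. In the deposited CPM, CM and Ctrl mice overlapped for miR-126a-5p. miR-126a-3p, an endothelial and stem cell miRNA, was at 153 CPM in mouse 3334, 215 in 3336, 221.8 in 3370, 251 in 3368, 321 in 3341, 1345 in 3357 and 1366 in 3338, compared with 85.3 to 118.8 CPM in Ctrl mice. Mice 3338 and 3357 thus stood far above the other CM mice. Over all mice the means were 553 ± 550.5 CPM in CM mice against 101.8 ± 15.3 CPM in Ctrl mice (SD, n = 7 each), a log2 fold change of 2.44 ± 0.50 (SE; edgeR adjusted p = 0.00363). Without 3338 and 3357 it was 1.11 (edgeR adjusted p = 0.00122). miR-126a-5p, the other strand of the hairpin, followed the same order at the top, with 853 CPM in 3357 and 859.6 CPM in 3338, 66.7 to 170.2 CPM in the other CM mice and 44.2 to 60.4 CPM in Ctrl mice (2.72 ± 0.54, edgeR adjusted p = 0.00363, and 1.29 with 0.00125 without both mice).

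miR-31-5p showed the same pattern at a higher level. It was at 3740.2 CPM in mouse 3338 and 3696 CPM in 3357, 479 to 743 CPM in the other 5 CM mice, and 140 to 274 CPM in 6 Ctrl mice, with Ctrl mouse 3342 at 500.7 CPM. Only this Ctrl mouse overlapped with CM mice (3334 at 479). The log2 fold change was 2.57 ± 0.55 (edgeR adjusted p = 0.00479), and 1.17 (adjusted p = 0.0104) without 3338 and 3357. Its other arm, miR-31-3p, was at 1.02 to 15.2 CPM and was not called (0.87 ± 0.52, edgeR adjusted p = 0.244).

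miR-499-5p, encoded in a myosin gene and known from heart and slow muscle, was at 39.8 CPM in mouse 3357, 33.9 in 3338, 10.4 to 17.2 in 4 CM mice and 4.55 in mouse 3334, compared with 1.53 to 6.15 CPM in Ctrl mice. All CM mice but 3334 were above all Ctrl mice (2.06 ± 0.41, edgeR adjusted p = 0.00363). miR-340-3p was at 632 CPM in 3338, 420.2 in 3357 and 71.4 to 230.2 CPM in the other CM mice against 52.7 to 119.9 CPM in Ctrl mice (1.60 ± 0.41, edgeR adjusted p = 0.0134). Its call was lost without 3338 and 3357 (0.72, edgeR adjusted p = 0.0688) and in the fit that includes sex (1.36, edgeR adjusted p = 0.0629). Its more abundant partner miR-340-5p differed little on average (-0.05 ± 0.22, edgeR adjusted p = 0.918), but ranged from 1621 CPM in mouse 3334 to 7254 CPM in 3338, with all Ctrl mice between 3927 and 4641 CPM.

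A second kind of increase was shared evenly by the CM mice. miR-151-5p, from an intron of Ptk2 (focal adhesion kinase), showed the smallest p-value of all. It was at 1921 CPM in mouse 3336, 2474 in 3338, 2979.8 in 3370, 3315 in 3368, 3388 in 3341, 3425 in 3334 and 3806 in 3357, and at 1012 to 1417 CPM in Ctrl mice. The arms did not overlap, and the increase was 1.34 ± 0.15 (edgeR adjusted p = 9.3e-05) with all mice and 1.25 (adjusted p = 0.000236) without 3338 and 3357. miR-151-3p rose as well, from 568 to 782 CPM in Ctrl to 1008 to 2131 CPM in CM mice (0.96 ± 0.17, edgeR adjusted p = 0.00199). With the G number as a covariate its change was 1.84, which comes from mice 3334 and 3339 alone. Mouse 3334 held the highest CM value, 2131 CPM.

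Other increases without overlap were smaller in level. miR-874-3p was at 28.6 to 51.8 CPM in CM mice against 10.4 to 19.5 CPM in Ctrl mice (1.26 ± 0.19, edgeR adjusted p = 0.000677). In the deposited CPM miR-874-3p overlapped between the arms, with means of 11.3 ± 3.20 CPM in CM mice against 6.46 ± 1.46 CPM in Ctrl mice (SD, n = 7 each; 0.70, limma adjusted p = 0.0227). Both arms of miR-674 rose, the 3p arm from 24 to 33.6 CPM in Ctrl to 38.5 to 77.7 CPM in CM mice (0.95 ± 0.17, edgeR adjusted p = 0.00199), and the 5p arm by 0.60 ± 0.14 (edgeR adjusted p = 0.00627). miR-148b-3p was at 3103 to 7252 CPM in CM mice against 2296 to 3101 CPM in Ctrl mice (0.96 ± 0.19, edgeR adjusted p = 0.00363). Its seed partner miR-148a-3p was at 3670.2 to 7546 CPM and 1628 to 4371 CPM (1.16 ± 0.22, edgeR adjusted p = 0.00345), with 5 of 7 CM mice above all Ctrl mice. The third tested miRNA with this seed, miR-152-3p, did not pass the test (0.10 ± 0.18, edgeR adjusted p = 0.743).

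The miR-322, miR-503 and miR-351 genes on chromosome X (GRCm38.p6, minus strand, mature starts between 53048008 and 53054306 together with the miR-450 and miR-542 genes) gave 4 higher and 1 lower of 14 tested positions, miR-450a-5p being counted at 2. Of all tested miRNAs 14.3% were called higher and 7.69% lower. The calls of this locus are strands of the miR-322, miR-503 and miR-351 hairpins and are not independent of each other. miR-322 and miR-503 are relatives of miR-15/16 that repress cyclins. miR-322-3p, whose sequence is printed above, was at 166 CPM in mouse 3338, 169 in 3336, 220.3 in 3357, 230.5 in 3368, 243 in 3334, 245 in 3341 and 263 in 3370, and all Ctrl mice were between 104.2 and 120.7 CPM (0.94 ± 0.13, edgeR adjusted p = 0.00048). miR-322-5p (0.56 ± 0.14, edgeR adjusted p = 0.0119) and miR-351-5p (0.77 ± 0.14, edgeR adjusted p = 0.00272) rose less. miR-503-5p was at 495 to 804 CPM in CM mice against 367 to 488 CPM in Ctrl mice, without overlap (0.63 ± 0.13, edgeR adjusted p = 0.00363). In contrast, miR-503-3p, cut from the same hairpin, was at 5.1 to 15.8 CPM in CM mice against 13.5 to 32 CPM in Ctrl mice and fell by 0.97 (SE 0.25, edgeR adjusted p = 0.0147), although not with the G number as a covariate (0.02). The neighbouring miR-542-3p differed little (-0.05 ± 0.15, edgeR adjusted p = 0.876).

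**Figure D2:**
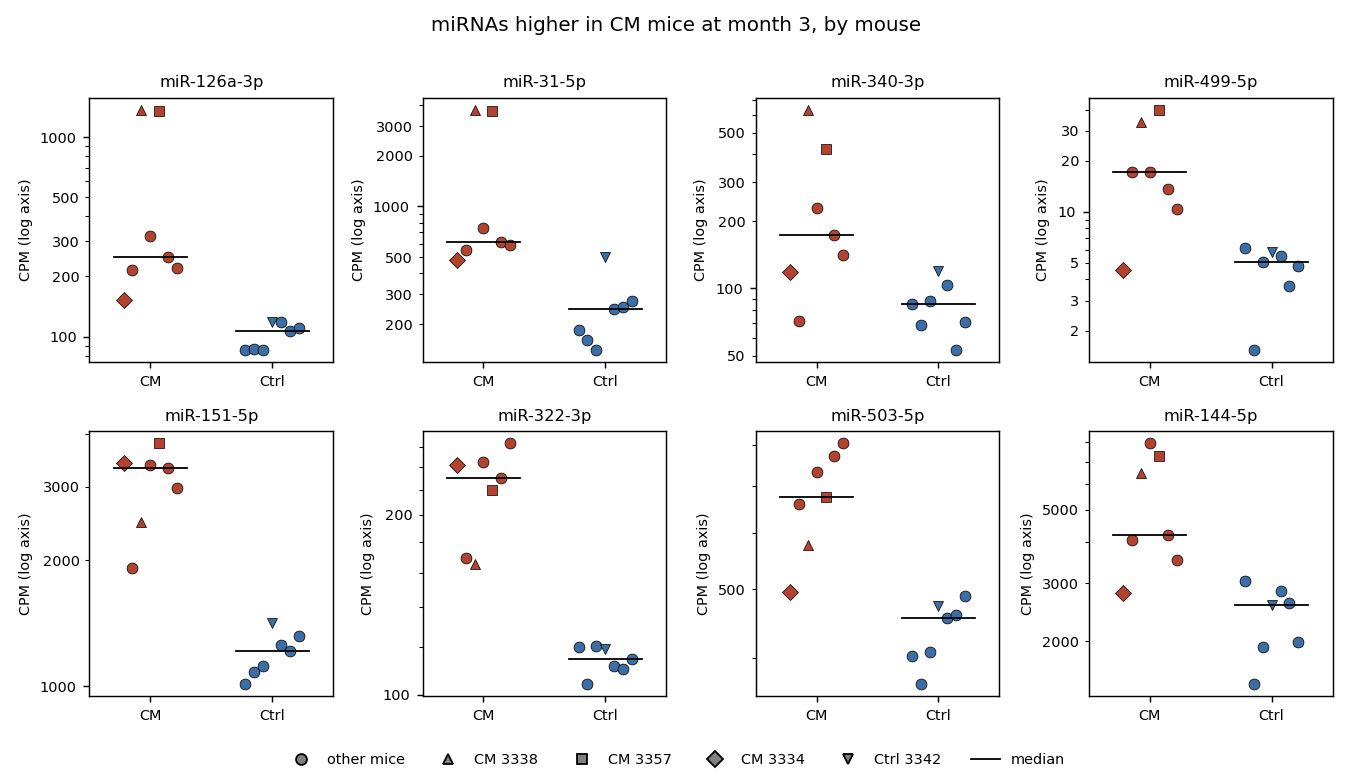
Each panel shows 1 miRNA called higher, with the CPM of the 7 CM and 7 Ctrl mice on a log axis and a line at the median of each arm. In the upper row mice 3338 (triangle) and 3357 (square) lie above the other CM mice, for example at 1366 and 1345 CPM of miR-126a-3p, whereas in the lower row all but miR-144-5p show no overlap between the arms.

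The size of some increases depended largely on 1 CM mouse. miR-298-5p and miR-296-3p, from the imprinted Gnas locus on chromosome 2, were at 251 and 103.99 CPM in mouse 3357, whereas the other CM mice were at 7.45 to 30.2 CPM and 4.14 to 13.9 CPM and Ctrl mice at 4.34 to 9.13 CPM and 1.43 to 5.02 CPM. Over all mice the log2 fold changes were 2.86 and 2.65. Without mouse 3357 that of miR-298-5p was 1.05 (edgeR adjusted p = 0.0433) and that of miR-296-3p 1.16 (edgeR adjusted p = 0.0359). Neither was called without both 3338 and 3357 (edgeR adjusted p = 0.125 and 0.107) or in the fit that includes sex (edgeR adjusted p = 0.147 and 0.0947). miR-212-5p and miR-132-5p, which share a CREB-induced transcript on chromosome 11, were highest in mouse 3338, at 47.5 and 41.7 CPM. The next CM mouse was 3357, at 9.06 and 9.82 CPM, and Ctrl mice had at most 3.21 and 3.89 CPM. Without mouse 3338 the changes were 1.09 (edgeR adjusted p = 0.0174) and 0.73 (adjusted p = 0.069), compared with 2.26 and 1.71 with it (edgeR adjusted p = 0.0179 and 0.036). In the fit that includes sex neither was called (edgeR adjusted p = 0.0798 and 0.204), and mouse 3338 is female, as are 4 of 7 CM but 2 of 7 Ctrl mice. miR-6238 had the reverse order, with 199 CPM in mouse 3334, 112.2 in 3336 and 94 in 3368 but 23.9 to 26.1 CPM in 3338, 3357 and 3341, against 6.23 to 41.5 CPM in Ctrl mice (2.05 ± 0.56, edgeR adjusted p = 0.0179).

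Of the 7 tested erythroid miRNAs (miR-144, miR-451a and miR-486 strands), 6 rose, compared with 14.3% of all tested miRNAs, and the median log2 fold change was 1.07 against 0.07 for all tested miRNAs. The 6 were both arms of miR-144, of miR-486a and of miR-486b, and are not independent of each other. In the deposited table miR-486a-5p and miR-486b-5p hold the same value in every library, with means of 18298 (CM) and 11532 (Ctrl). The 6 of 7 and the median thus overstate the number of separate signals. miR-144-5p was at 2806 to 7949 CPM in CM mice against 1485 to 3036 CPM in Ctrl mice, with only mouse 3334 inside the Ctrl range (1.14 ± 0.24, edgeR adjusted p = 0.00466). miR-144-3p was at 2289.9 CPM in mouse 3334, 5027 in 3370, 5785 in 3338, 11140.2 in 3368, 12351 in 3341, 12719 in 3336 and 18029 in 3357, against 2600 to 6607 CPM in Ctrl mice (1.24 ± 0.38, edgeR adjusted p = 0.0293), and its call was lost without mouse 3357 (1.02, edgeR adjusted p = 0.0655), without any of 5 single Ctrl mice (3335, 3339, 3340, 3349 or 3350) and in the fit that includes sex (1.05, edgeR adjusted p = 0.107). With the G number as a covariate, where the change comes from mice 3334 and 3339 alone, its sign turned (-0.18). miR-451a, which is processed from the same primary transcript without Dicer, was at 19130.5 to 51348 CPM and 20467 to 38228 CPM and did not pass the test (0.19 ± 0.22, edgeR adjusted p = 0.6). miR-486b-5p, from an intron of Ank1, was at 13343 to 31304 CPM in CM mice against 9748 to 15621 CPM in Ctrl mice (0.69 ± 0.22, edgeR adjusted p = 0.0322), a call that was lost without 3338 and 3357 (0.56, edgeR adjusted p = 0.109) and in the fit that includes sex (0.64, edgeR adjusted p = 0.0727). The split of counts between miR-486b and its nearly identical copy miR-486a is uncertain.

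miR-223-3p, the myeloid miRNA, was at 5054 CPM in mouse 3357, 6678 to 8233 in 4 CM mice, 10600.0 in 3368 and 11294 in 3370, compared with 3946 to 4886 CPM in 6 Ctrl mice and 7242 CPM in Ctrl mouse 3342 (0.74 ± 0.19, edgeR adjusted p = 0.0122). miR-223-5p did not pass the test (0.25 ± 0.17, edgeR adjusted p = 0.293). miR-150-5p, which is high in mature B, T and NK cells, fell. It was at 15609 CPM in mouse 3338, 30524 in 3357, 32957 in 3368 and 40545 to 43716 CPM in the other 4 CM mice, and at 44651 to 71120.4 CPM in Ctrl mice, without overlap (-0.70 ± 0.20, edgeR adjusted p = 0.0222, and -0.64 with 0.0511 without Ctrl mouse 3339). It was the only called member of the lymphocyte list of 4, and its other arm did not move with it (0.02 ± 0.13, edgeR adjusted p = 0.93).

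Among the decreases, miR-374b-5p, from the Ftx locus beside Xist on chromosome X, showed the smallest unadjusted p. Its adjusted p was shared by miR-455-5p, a low miRNA at 2.28 to 4.57 CPM in CM mice against 6.03 to 11.9 CPM in Ctrl mice (-1.48 ± 0.22). It was at 856 CPM in mouse 3334, 983 in 3338, 991 in 3370, 1218 in 3357, 1347 in 3368, 1524 in 3341 and 2002 in 3336, and at 2651 to 3139 CPM in Ctrl mice. All CM mice were below all Ctrl mice (-1.19 ± 0.17, edgeR adjusted p = 0.000652, and -1.29 with adjusted p = 0.000326 in the fit that includes sex). miR-421-3p, encoded beside it, rose instead (0.72 ± 0.19, edgeR adjusted p = 0.0166). miR-345-5p was at 13.4 to 56.8 CPM in CM mice against 66.2 to 85.3 CPM in Ctrl mice (-1.06 ± 0.24, edgeR adjusted p = 0.00606). miR-3473b (-1.30 ± 0.27, edgeR adjusted p = 0.00363) and miR-5121 (-1.06 ± 0.18, edgeR adjusted p = 0.00179) also fell without overlap, but miR-5121 was not called in the deposited CPM (-0.33, limma adjusted p = 0.255).

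Of the 10 tested miRNAs of the epithelial list, 4 fell, compared with 7.69% of all tested miRNAs, and the other 6 did not pass the test. The median of the 10 was -1.15, against 0.07 for all. The members are not independent, since miR-200c and miR-141 share a locus, and miR-200a, miR-200b and miR-429 share another. The 4 of 10 and the median thus overstate the number of separate signals. miR-200c-3p was at 181 to 347 CPM in 6 CM mice and 685 CPM in mouse 3334, and at 550.2 to 1247 CPM in Ctrl mice (-1.28 ± 0.26, edgeR adjusted p = 0.00375). miR-141-3p, encoded within 10 kb of it on chromosome 6, was at 48.9 to 112.9 CPM in CM mice against 123.7 to 283 CPM in Ctrl mice, without overlap (-1.17 ± 0.24, edgeR adjusted p = 0.00363). miR-200b-3p was at 130.4 to 277 CPM in 6 CM mice, 584 CPM in mouse 3334, 406 to 1012 CPM in 6 Ctrl mice and 2322 CPM in Ctrl mouse 3342. Its fold change was -1.61 ± 0.44 (edgeR adjusted p = 0.0179), and -1.05 (adjusted p = 0.0295) without 3342. It was not called without 3338 and 3357 (-1.46, edgeR adjusted p = 0.0634). Its sign turned once the G number was a covariate (0.21), where the change comes from mice 3334 and 3339 alone. miR-429-3p and miR-200a-3p of the same locus on chromosome 4 gave -1.18 and -0.90 and were not called (edgeR adjusted p = 0.13 and 0.147). miR-135a-5p was at 0.525 to 21.1 CPM in CM mice against 5.91 to 97.3 CPM in Ctrl mice (-2.40 ± 0.66, edgeR adjusted p = 0.0179). In the deposited CPM the lowest Ctrl value of miR-135a-5p was 38.5 CPM, and Ctrl mouse 3346, lowest in the count table, was at 61.4 CPM. The summed CPM of the list was between 1472 and 3040.5 in CM and between 2174 and 8650.4 in Ctrl mice, with the highest Ctrl value again in 3342. The part of epithelial cells in this result was not tested.

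**Figure D3:**
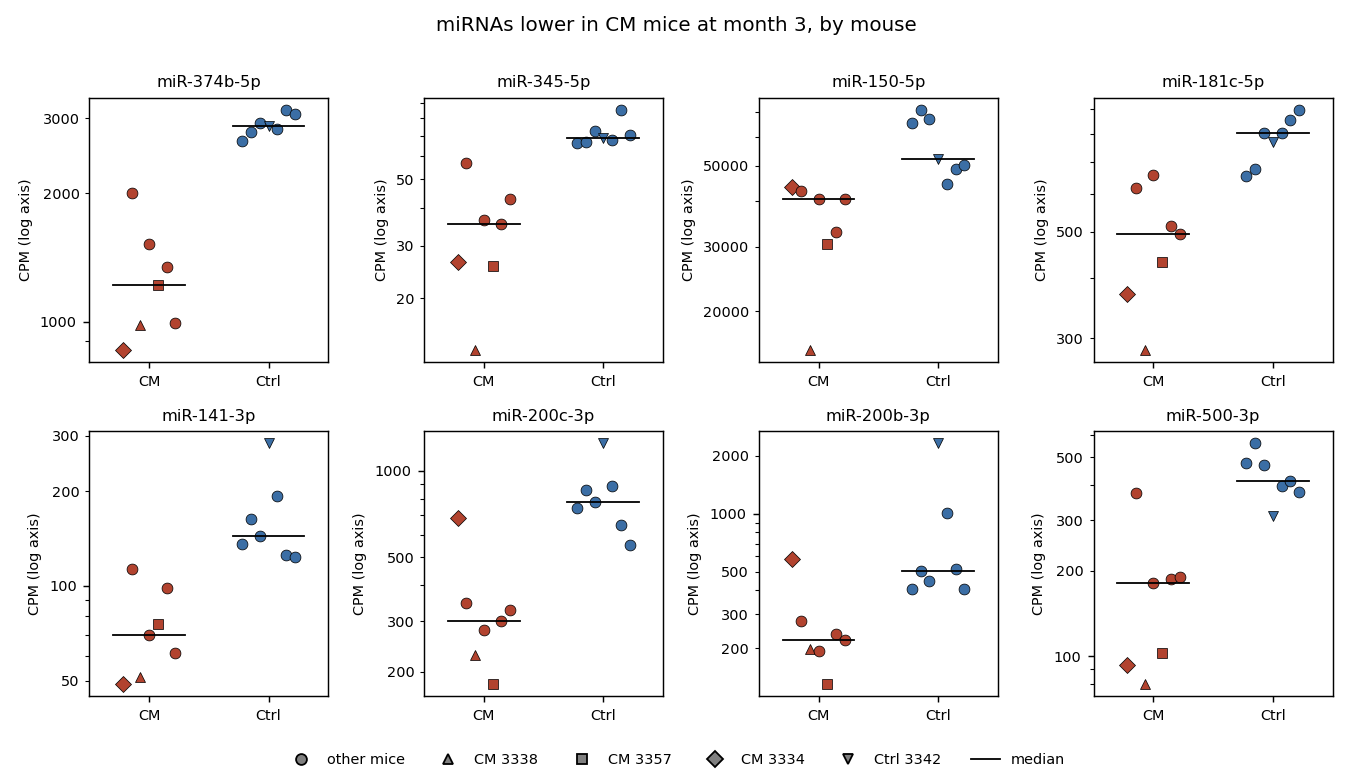
Each panel shows 1 miRNA called lower, with the CPM of the 7 CM and 7 Ctrl mice on a log axis and a line at the median of each arm. miR-374b-5p, miR-345-5p, miR-150-5p and miR-141-3p show no overlap between the arms, whereas CM mouse 3334 (diamond) reaches the Ctrl range for miR-200c-3p (685 CPM) and miR-200b-3p (584 CPM), and Ctrl mouse 3342 (inverted triangle) is the highest for these and miR-141-3p.

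Members of the miR-181 family diverged. miR-181c-5p was at 283 to 657 CPM in CM mice against 654 to 897 CPM in Ctrl mice and fell by 0.70 (SE 0.17, edgeR adjusted p = 0.0115). miR-181d-5p, from the same strand of chromosome 8 (GRCm38.p6; lowest positions 84178759 for miR-181d-5p and 84178924 for miR-181c-5p), was at 450.4 to 1416 CPM in CM mice against 405 to 589 CPM in Ctrl mice and rose by 0.78 ± 0.21 (edgeR adjusted p = 0.0166). miR-181a-5p and miR-181b-5p, with the same seed, ranged from 680.1 to 6444 CPM and 71.3 to 658 CPM over both arms and were not called (edgeR adjusted p = 0.704 and 0.973). The passenger strand miR-181a-2-3p was at 6.04 to 12.5 CPM in CM mice against 14 to 21.7 CPM in Ctrl mice, without overlap (-0.94 ± 0.19, edgeR adjusted p = 0.00363), but is listed at 0 in the deposited CPM of all 14 libraries, so that this call rests on the count table. miR-190a-5p and miR-190b-5p share a seed as well and moved apart, by 1.5 ± 0.49 and -0.59 ± 0.15 (edgeR adjusted p = 0.0373 and 0.0147), the former at 1.66 to 20.5 CPM in CM mice against 1.84 to 3.67 CPM in Ctrl mice.

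Where both strands of a hairpin were tested, they had the same sign in 75 hairpins (63.6%). In 12 hairpins both strands were called, 10 of them in the same direction. The exceptions were miR-503 and miR-22, where miR-22-5p was higher (0.41 ± 0.14, edgeR adjusted p = 0.0487) and the abundant miR-22-3p lower (-0.41 ± 0.14, edgeR adjusted p = 0.0478). For miR-29a and miR-29c the minor 5p strands fell (-0.99 ± 0.24 and -0.81 ± 0.17, edgeR adjusted p = 0.00945 and 0.00466), whereas the 3p strands, known to repress collagens and DNA methyltransferases, did not pass the test (0.02 and -0.50, edgeR adjusted p = 0.962 and 0.129).

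Other lists were read against the same background, 14.3% of tested miRNAs called higher and 7.69% lower. Of the 14 tested miRNAs of the platelet and megakaryocyte list, 4 rose (both arms of miR-126a, miR-223-3p and miR-191-5p) and 1 fell (miR-28a-3p). Of 6 in the miR-106b-25 cluster of Mcm7, miR-25-5p and miR-106b-3p rose (0.85 ± 0.24 and 0.84 ± 0.23, both edgeR adjusted p = 0.0179), and both calls were lost without 3338 and 3357 (edgeR adjusted p = 0.116 and 0.0878). Of 8 in the cluster of miR-188, miR-362, miR-500, miR-501, miR-532 and miR-660, only miR-500-3p was called, at 80.1 to 376 CPM in CM mice against 309.8 to 559 CPM in Ctrl mice (-1.31 ± 0.30, edgeR adjusted p = 0.00692). In the list of inflammatory miRNAs 1 of 8 was called. This was miR-146a-5p, an NF-kB-induced inhibitor of Toll-like receptor signalling, at 28931 to 48679.5 CPM in CM mice against 47220.3 to 63206 CPM in Ctrl mice (-0.42 ± 0.14, edgeR adjusted p = 0.0414), which was not called without 3338 and 3357 (-0.38, edgeR adjusted p = 0.0688) or in the fit that includes sex (-0.41, edgeR adjusted p = 0.0705). At month 0 miR-146a-5p had already differed by -0.42 (edgeR adjusted p = 0.391), and the interaction of arm and month was 0.0069 (edgeR adjusted p = 0.989). miR-10b-5p of the Hox clusters was the only call of 4 (-0.58 ± 0.16, edgeR adjusted p = 0.0179), but had differed by -0.65 at month 0 (edgeR adjusted p = 0.261), with an interaction of 0.07 (edgeR adjusted p = 0.914). miR-18b-5p fell by 0.62 (SE 0.17, edgeR adjusted p = 0.0187), the only call of 6 in the miR-106a-363 cluster. No member was called in the lists of stem and progenitor miRNAs of the miR-99, miR-100 and miR-125 family (8 tested), miR-17-92 (11), let-7 5p (8) and 3p strands (7), miR-23, miR-24 and miR-27 (10), miR-130 and miR-301 (6), miR-221 and miR-222 (4), miR-182, miR-183 and miR-96 (3), vessel wall (3) and the Sfmbt2 cluster (30). Of the 99 named miRNAs of the imprinted Dlk1-Dio3 domain, 0 passed the filter on low counts and 25 were at 0 in all 14 libraries.

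Muscle miRNAs were few, with 2 of 3 tested called. Beside miR-499-5p, miR-133a-3p was at 0.525 CPM in mouse 3338, 2.8 in 3336, 6.29 in 3357 and 12.7 to 19.9 CPM in 4 CM mice, against 0 to 3.76 CPM in Ctrl mice (2.49 ± 0.69, edgeR adjusted p = 0.0179). The order of the CM mice thus differed between these miRNAs, as 3338 was second highest for miR-499-5p and lowest for miR-133a-3p. miR-215-5p of the liver and gut list was at 7.39 to 36.5 CPM in CM mice against 3.89 to 18.7 CPM in Ctrl mice (1.48 ± 0.40, edgeR adjusted p = 0.0179), and was not called without 3338 and 3357 (1.20, edgeR adjusted p = 0.0688).

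The most abundant miRNAs changed little on average. miR-21a-5p was at 64076 CPM in mouse 3334 and 121680 to 134874 CPM in the other CM mice, and at 90992 to 135187 CPM in Ctrl mice (0.02 ± 0.16, edgeR adjusted p = 0.969). Let-7i-5p (-0.30 ± 0.12, edgeR adjusted p = 0.0717), miR-142a-5p (0.19 ± 0.18, adjusted p = 0.496) and let-7g-5p (0.26 ± 0.16, adjusted p = 0.27) were not called either.

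miR-26a-5p, a miRNA with 2 genomic copies of identical mature sequence, was at 6813 to 108655 CPM in CM mice against 6760 to 66184 CPM in Ctrl mice from the count table (0.08 ± 0.64, edgeR adjusted p = 0.949). In the deposited CPM of the same libraries it was at 69818 to 113610 CPM and 69974 to 85144 CPM. The low values lay in both arms, with 4 CM libraries (3336, 3357, 3368 and 3370) and 2 Ctrl libraries (3342 and 3346) at or under 23027 CPM. To see how far the tables differed in general, the log2 ratio of CPM from the counts to deposited CPM was taken for each tested miRNA. Its SD over the 14 libraries had a median of 0.12 and was over 1 for 21 miRNAs, among them miR-16-5p, miR-1a-3p, let-7f-5p and miR-26a-5p. Of these 21, 15 were named in RefSeq, 14 of them at 2 or more loci, compared with 12 of the 360 named among the remaining 434. miR-135a-5p was the only one of the 21 among the 100 calls, and without the 21 miRNAs 98 miRNAs were called, of which 55 were higher, 43 lower and 89 among the 100. Of the 100 calls, 96 were tested in the deposited CPM, 95 with the same sign, and 78 were called there as well (limma adjusted p under 0.05). Among the miRNAs described above, miR-298-5p (1.39), miR-296-3p (1.47), miR-132-5p (0.91), miR-144-3p (1.00), miR-191-5p (0.40) and miR-5121 were not called in the deposited CPM (limma adjusted p = 0.095, 0.0532, 0.13, 0.0558, 0.0972 and 0.255). The arms also overlapped there for miR-126a-5p, miR-674-3p, miR-503-5p and miR-18b-5p, which kept their calls.

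**Figure D4:**
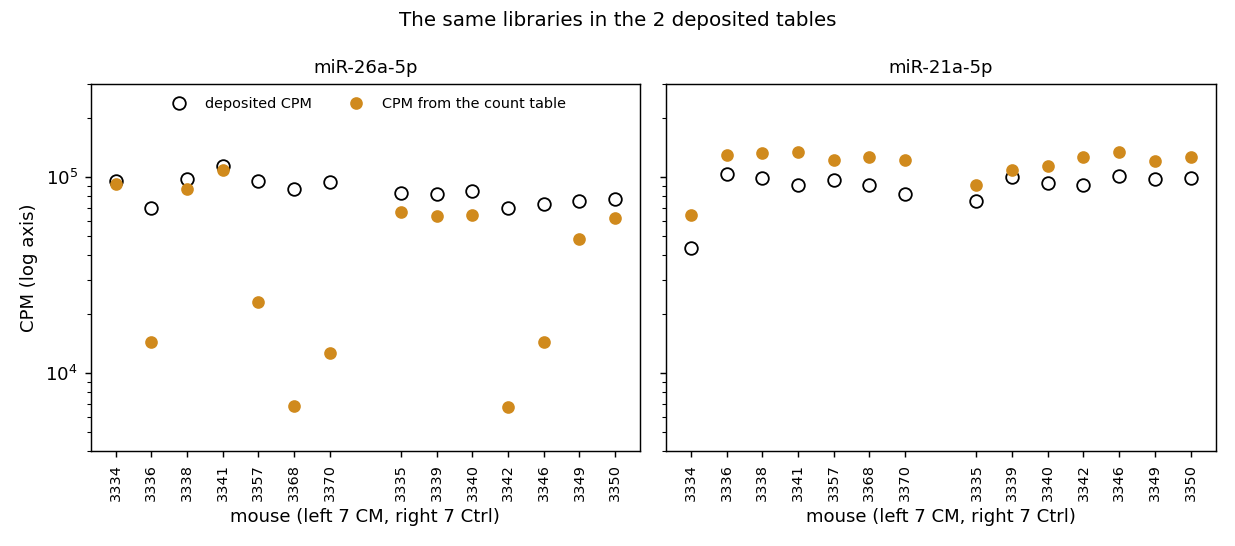
CPM of miR-26a-5p (left) and miR-21a-5p (right) in each of the 14 libraries on a log axis, from the count table (filled) and from the deposited CPM (open), with CM mice on the left of each panel. For miR-26a-5p 6 libraries fall to between 6760 and 23027 CPM in the count table alone, whereas for miR-21a-5p both tables follow each other.

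To describe how far CM mice differed among themselves, the SD of log2 CPM was computed per miRNA and arm. It was larger in CM mice for 388 of 455 miRNAs (85.3%), with a median of 0.53 in CM and 0.29 in Ctrl mice and a median ratio of 1.79. The exact permutation test of each miRNA's deviations from the arm median called 0 of 455 (0.00%), with 44 (9.67%) larger in CM mice and 0 larger in Ctrl mice at an unadjusted p under 0.05. Leaving out a single CM mouse gave 13 calls without 3341, 12 without 3368 and 7 without 3336, 3338 or 3370, and 0 without 3334 or 3357. Over all tested miRNAs the mean absolute deviation of a library from its arm's median was 0.44 ± 0.14 in CM and 0.28 ± 0.06 in Ctrl mice (SD, n = 7 each; exact permutation test over libraries, p = 0.0134). The highest values were those of CM mice 3334 (0.65), 3338 (0.58) and 3357 (0.49), whereas 3341 and 3370 (both 0.31) lay within the Ctrl range of 0.22 to 0.40. Without 3338 and 3357 the difference was 0.09 (exact permutation test, p = 0.14), and without 3334 as well it was 0.03 (exact permutation test, p = 0.427). With all libraries thinned to the depth of 3334, the smallest, the difference was 0.13 (exact permutation test, p = 0.0152).

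**Figure D5:**
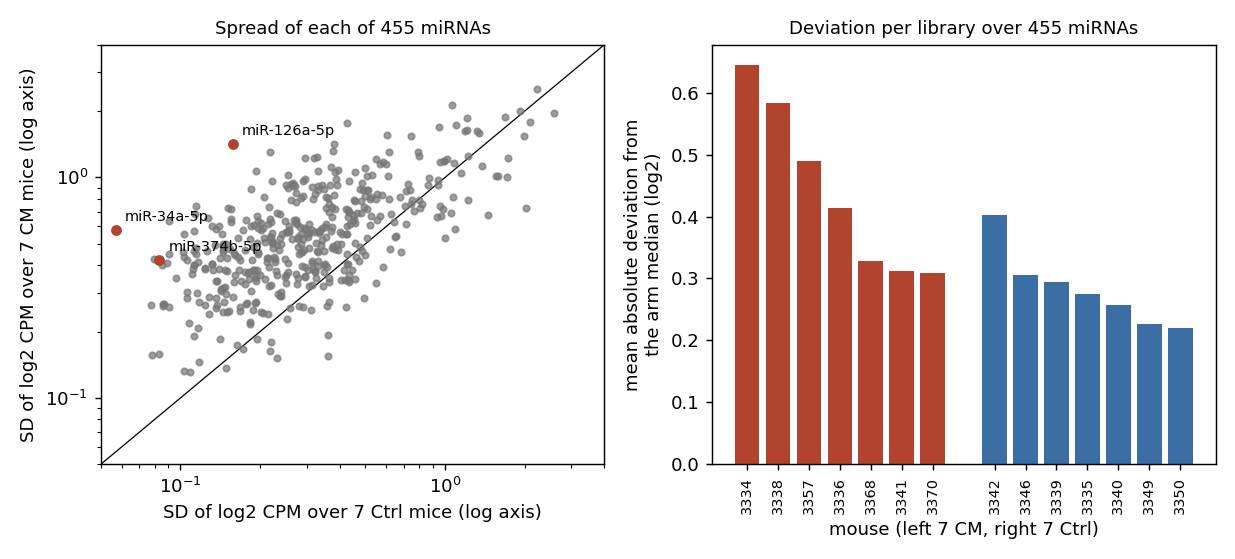
Left, the SD of log2 CPM over the 7 CM mice against that over the 7 Ctrl mice for each of 455 miRNAs on log axes, with the line of equal SD. Right, bars give the mean absolute deviation of each library from its arm's median, highest in CM mice 3334 (0.65), 3338 (0.58) and 3357 (0.49).

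The largest ratios of SD among miRNAs at 10 CPM or more were those of miR-34a-5p (10.1), miR-126a-5p (9.00), miR-340-5p (7.05), miR-101a-3p (6.46) and miR-142a-3p (6.05). miR-34a-5p, a p53 target that restrains the cell cycle, was at 40.5 CPM in mouse 3336, 42.3 in 3368, 47.3 in 3370, 49 in 3341 and 49.3 in 3334, but at 97.1 CPM in 3338 and 107.01 CPM in 3357, while all Ctrl mice lay between 86.7 and 96.4 CPM. Thus 5 CM mice were below and 2 above every Ctrl mouse. Over all mice miR-34a-5p did not pass the test (-0.56 ± 0.22, edgeR adjusted p = 0.0785). It was called without 3338 and 3357 (-1.07, edgeR adjusted p = 3.97e-05) and in the fit that includes sex (-0.70, edgeR adjusted p = 0.0487). The log2 fold change was -1.10 at month 1 and -1.11 at month 2 (edgeR adjusted p = 1.05e-05 and 0.00201) and 1.34 at month 4 (adjusted p = 0.313). Its relative miR-34c-5p was at 1.01 to 5.25 CPM in CM mice against 6.16 to 19.6 CPM in Ctrl mice without overlap (-1.67 ± 0.34, edgeR adjusted p = 0.00363). miR-101a-3p was at 1976 CPM in mouse 3334 and 5331 to 8913 CPM in the other CM mice, against 5423 to 6786 CPM in Ctrl mice. miR-142a-3p was at 6906 CPM in 3334 and 14869 to 31316 CPM in the others, against 26829 to 34479 CPM in Ctrl mice.

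Per CM mouse, between 35 and 60 of the 65 miRNAs called higher lay above all Ctrl libraries, with 60 in 3338 and 3357, 58 in 3341, 55 in 3368, 53 in 3370, 49 in 3334 and 35 in 3336. Of the 35 called lower, 25 (3336) to 34 (3357) lay below all Ctrl libraries. Mouse 3338 was the highest CM library for 21 of the 65 and the lowest for 14 of the 35, and 3357 for 16 and 7. These counts describe the called miRNAs, which were chosen for their difference between the arms. The same counts per mouse were not made over all tested miRNAs, so there is no background to set them against.

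The miRNAs named here were also followed at the other early months. At month 0 the arms differed by 0.17 for miR-151-5p, 0.49 for miR-31-5p and -0.54 for miR-374b-5p (edgeR adjusted p = 0.738, 0.42 and 0.378). For miR-374b-5p the interaction of arm and month, months 0 and 3, was -0.66 (edgeR adjusted p = 0.274). Other differences at month 0 were -0.71 for miR-126a-3p, 0.06 for miR-126a-5p, -0.81 for miR-25-5p and -1.26 for miR-135a-5p, and did not pass the test (edgeR adjusted p = 0.434, 0.927, 0.324 and 0.442). Both arms of miR-126a were called higher in each of months 1, 2 and 4. In that order the 3p arm gave 1.68, 1.58 and 2.47 (edgeR adjusted p = 1.05e-05, 0.00352 and 0.0371). The 5p arm gave 1.82, 2.02 and 2.87 (edgeR adjusted p = 1.05e-05, 0.0107 and 0.0315). At month 1 miR-31-5p was higher by 2.21 ± 0.25 (edgeR adjusted p = 2.67e-05), miR-499-5p by 2.34 ± 0.45 (0.00523) and miR-151-5p by 1.27 ± 0.19 (edgeR adjusted p = 0.000645). miR-151-5p and miR-151-3p were higher at month 2 too (1.27 and 1.19, edgeR adjusted p = 0.000384 and 0.000665) but did not pass the test at month 4 (0.53 with edgeR adjusted p = 0.574, and 0.22 with 0.83). miR-345-5p was lower at months 1 and 2 (-1.08 and -1.27, edgeR adjusted p = 0.00523 and 0.0172) but did not pass at month 4 (-0.80, edgeR adjusted p = 0.272). In contrast, miR-374b-5p and miR-200b-3p were not called at months 1, 2 or 4 (edgeR adjusted p between 0.108 and 0.495). miR-144-5p gave -1.19, 2.94, 1.23 and 0.76 at months 0, 1, 2 and 4 (edgeR adjusted p = 0.461, 0.0057, 0.0228 and 0.241). In that order miR-144-3p gave 0.50, 2.00, 0.38 and 1.03 (edgeR adjusted p = 0.675, 0.0105, 0.501 and 0.165). miR-223-3p gave 0.18, -0.84, 0.70 and -0.09 (edgeR adjusted p = 0.868, 0.16, 0.155 and 0.907). miR-150-5p gave -0.05, -0.46, -0.30 and -0.74 (edgeR adjusted p = 0.932, 0.244, 0.476 and 0.457). The months share mice, so that they are not independent, and 0.209%, 27.5%, 13.5% and 0.837% of tested miRNAs were called at months 0, 1, 2 and 4. CM mice numbered 6 at months 2 and 4. For the change from month 0 to month 3, an interaction of arm and month called 12 of 515 miRNAs (2.33%), and 0 with mouse as a block (75 at an unadjusted p under 0.05 in edgeR).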

How the data were processed

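PBMC small RNA of 14 mice was used. Per the labels, RNA was ligated to adapters, amplified and size-selected; per the methods, the authors trimmed reads with cutadapt and aligned them with Bowtie. The methods name mm9, the submitters' processing notes GRCm38. The deposited counts (mirTOP, settings not stated) were whole numbers for 1863 mature miRNAs. The deposited CPM, a scaled signal that the authors made with TMM, gave whole reads for 100% of values (tolerance 0.01), on which edgeR called 125 of 450 miRNAs (78 higher, 47 lower). How reads of miRNAs with several loci were assigned is not stated. Intervals from depth would cover counting error only, and none is given.

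Counts were tested with edgeR 4.0.16 (R 4.3.3) using TMM, filterByExpr and glmQLFTest. Deposited CPM was tested with limma 3.58.1 on the log2 scale with a pseudocount of 1, keeping miRNAs that reached 1 CPM in 7 libraries, a scale that understates changes of low miRNAs. DESeq2 1.42.0 was an alternative. Exact permutation tests over mice were two-sided (Python 3.11.15; smallest p 0.000583). The pseudocount, filter, scaling, covariates and omitted mice were varied. Scripts were tested on simulated data. Within a month, replicates were separate mice.

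Members and lists were chosen with earlier results of these data known. Named were miR-126a, and, among called miRNAs at a mean of 10 CPM or more, the 12 largest changes and 5 smallest p in each direction; the 5 most abundant; the 5 largest SD ratios; called list members; and the other strands. Seed, hairpin or locus partners outside this rule (miR-148a, miR-148b, miR-152, miR-181a, miR-181b, miR-190a, miR-190b, miR-200a, miR-22, miR-351, miR-421, miR-429, miR-542), list members not called, miR-455-5p, and examples of differences between the tables were added after their values were seen. The same animals were sampled at months 0 and 3, which pairs the libraries (correlations of deviations -0.21 to 0.29).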

Additional observations from a re-analysis of the deposited data

Results flagged for a closer look

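Of 74 groups of 7 libraries checked (each arm for 37 named miRNAs), 9 held a library far from the others by Dixon's test. Chance flags about 1 in 20 groups of miRNAs that were not chosen for their values. The 37 were partly chosen for large changes or large SD ratios, so the 9 cannot be set against that rate. CM mouse 3357 was high for miR-298-5p (251 CPM) and miR-296-3p (103.99 CPM). CM mouse 3334 was high for miR-151-3p (2131 CPM) and low for miR-21a-5p (64076 CPM) and miR-101a-3p (1976 CPM). Among Ctrl mice, 3339 was low for miR-499-5p (1.53 CPM), 3346 was low for miR-135a-5p (5.91 CPM, in the count table only, against 61.4 CPM in the deposited CPM) and high for miR-142a-3p (34479 CPM), and 3349 was high for miR-345-5p (85.3 CPM).

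The change from month 0 to month 3 differed between the arms for 12 of 515 miRNAs by the interaction term. In units of log2, the change in CM minus that in Ctrl mice was 3.17 for miR-126a-3p, 2.69 for miR-126a-5p, 1.81 for miR-499-5p, 1.66 for miR-25-5p, 1.24 for miR-504-5p, 1.15 for miR-151-5p and 0.95 for miR-151-3p. It was -0.71 for miR-181c-5p, -1.24 for miR-181a-2-3p, -1.33 for miR-455-5p, -1.82 for miR-5120 and -5.75 for miR-669a-5p, the latter with an SE of 1.52. These values include the difference at month 0, where miR-126a-3p gave -0.71 and miR-25-5p gave -0.81. In the deposited CPM miR-181a-2-3p is listed at 0 in all 14 libraries of month 3. The edgeR adjusted p was between 0.013 and 0.0417. With mouse as a block the values were 2.22 for miR-126a-3p, 1.20 for miR-151-5p, 0.96 for miR-151-3p and -1.31 for miR-181a-2-3p, and none of the 12 was called (the smallest edgeR adjusted p was 0.0638). Without mice 3338 and 3357, miR-126a-3p gave 1.70 (edgeR adjusted p = 0.132).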

How the results depend on the processing

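Of 455 miRNAs 100 were called, and the count stayed between 62 and 144 under all alternatives but the G number within month 3, with 6 (4 higher, 2 lower). It was 62 (36 higher) with all training libraries and the G number in 1 fit, with 41 higher without the G number. Both of these fits had no term for the mouse, so that repeated libraries of a mouse counted as separate replicates. With DESeq2 62 were lower. In the deposited CPM 68 were lower with either pseudocount, and 36 higher without a filter. Leaving out 1 mouse gave at least 75 calls (without Ctrl 3340), 46 to 81 higher and 27 to 57 lower, with both upper ends without CM 3334. Alternatives added after seeing the data gave 36 higher without mice 3338 and 3357, also with sex as a covariate, and 55 lower without 3334 and 3342. With the G number within month 3, miR-144-3p (-0.18), miR-200b-3p (0.21) and miR-503-3p (0.0166) changed direction. In that fit the difference between the arms comes from CM mouse 3334 and Ctrl mouse 3339 alone.

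The test of spread called 0 miRNAs, and 0 to 13 without 1 mouse. The difference between the arms in deviation per library, 0.16, was 0.0895 without 3338 and 3357 and 0.0296 without 3334 as well. The interaction called 12, 0 with mouse as a replicate block, 0 without 3338 and 3357, and 2 (without CM 3357) to 29 (without CM 3334) without 1 mouse. The difference in total count was no longer past the threshold without 3334 and 3335 (-0.25). Depth limits the low miRNAs most, such as miR-133a-3p, with 0 counts in Ctrl mouse 3335.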
